A study of Mus musculus with 3 samples.

Results

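The FGF ligands and FGF receptors described here were 9 genes, the ligands *Fgf1*, *Fgf2*, *Fgf7*, *Fgf10*, and *Fgf18* and the receptors *Fgfr1*, *Fgfr2*, *Fgfr3*, and *Fgfrl1*, out of 32285 genes in the count matrices. They were chosen by name and matched to the gene symbols of the deposited files. The cells came from the callus of untreated C57BL/6 mice with a femoral fracture, collected at day 7, day 10, and day 14 after the fracture. All 3 groups shared the fracture, the strain, and a flow cytometry sort for live cells without CD45, CD31, and TER119, and no unfractured group was analysed here. The study asked which mesenchymal populations make up the fibrocartilaginous callus, and the genes of FGF signaling are read here against the markers of those populations. Each day was 1 droplet library, in which a captured mRNA is counted by its unique molecular identifier (UMI) and a barcode stands for 1 cell. No source used here gives the number or the age of the animals behind a library, so day, library, and animal cannot be told apart, and no test was possible. Intervals are exact 95% intervals and cover counting error only.

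Fibroblast growth factors are secreted proteins that bind receptor tyrosine kinases on the cell surface together with heparan sulfate chains. In growing bone, FGFR3 is known for restraining the proliferation of chondrocytes, FGFR1 is known from hypertrophic chondrocytes and osteoblasts, and FGFR2 is known from osteoprogenitors and the perichondrium. FGFRL1 binds FGFs but lacks the tyrosine kinase domain. Activated receptors signal through adaptor proteins to the MAP kinase pathway, which induces ETS transcription factors and feedback inhibitors such as the Sprouty proteins and DUSP6.

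The limits of the study on genes, mitochondrial UMIs, and hemoglobin UMIs kept 7017 cells of day 7, 6593 of day 10, and 9853 of day 14. The sort was against CD45, which *Ptprc* encodes, but only 447 cells of day 7 (6.37%) had no UMI of *Ptprc*, compared with 6587 of day 10 and 9680 of day 14. The other 6570 cells of day 7 held 279743 CPM of 4 neutrophil markers, so that library went against its label. All results on the members are from the *Ptprc*-negative cells, with a median of 6763 UMIs at day 7, 17372 at day 10, and 15838 at day 14. The day 10 and day 14 libraries shared 18 barcodes among these cells, and day 7 shared 1 with day 14 and 0 with day 10.

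The *Ptprc*-negative cells were placed in classes by 5 marker genes. A cell was called high for a marker when its CPM, the marker's UMIs scaled to a common total per cell or class, reached 0.25 of the 99th percentile over day 10 and day 14 and it held at least 3 UMIs of the marker. The resulting minimum was 2999 CPM for *Aspn*, 1654 CPM for *Cnmd*, 15051 CPM for *Col10a1*, and 499 CPM for *Ifitm5*. *Chodl* was at 0 in over 99% of the cells, so the minimum of 3 UMIs alone decided there. The *Aspn*-high class had 9, 967, and 2453 cells at the 3 days in turn. The *Cnmd*-high class had 55, 2728, and 1619 cells. The *Col10a1*-high class had 2, 357, and 850 cells, and a further 1, 44, and 28 cells were high for *Cnmd* and *Col10a1* together. The *Ifitm5*-high class had 6, 119, and 369 cells and the *Chodl*-high class had 2, 38, and 11 cells. Classes with fewer than 20 cells are described as counts only, apart from the *Chodl*-high cells of day 14. This leaves *Cnmd*-high as the only marker class read at day 7.

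The classes were checked against other markers. Summed over 5 markers, fibroblastic genes were at 21684 CPM in *Aspn*-high cells of day 10, against 4540 CPM in *Cnmd*-high cells. Summed over 5 markers, chondrocyte genes were at 57662 CPM in *Cnmd*-high cells of day 10, against 2671 CPM in *Aspn*-high cells. The 4 hypertrophic markers summed to 33338 CPM in *Col10a1*-high cells at day 10 and 2248 CPM in *Cnmd*-high cells, and 5 osteoblast markers summed to 76063 CPM in *Ifitm5*-high cells. *Col10a1*-high cells also held 30093 CPM of the chondrocyte list and 25692 CPM of the osteoblast list. At day 10 the 4 neutrophil markers summed to at most 8.76 CPM and the 3 macrophage markers to at most 2.23 CPM in any marker class. At day 14 the neutrophil list reached 236 CPM in *Aspn*-high cells and at most 39.6 CPM in the other marker classes. At day 7 the neutrophil list stood at 1880 CPM in *Cnmd*-high cells with all 4 markers present, and its part in the day 7 levels was not tested.

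Over the *Ptprc*-negative cells of all days, *Fgfr1* had 48053 UMIs, *Fgfrl1* 47055, *Fgfr3* 28671, and *Fgfr2* 17889. Of the ligands, *Fgf7* had 5175 UMIs, *Fgf2* 1435, *Fgf1* 1069, *Fgf18* 561, and *Fgf10* 2. Every member thus had at least 1 UMI, and *Fgf10* was too sparse for any comparison of classes. In a 3' assay a molecule gives 1 UMI whatever its length, but the capture of different genes can differ, and the counts do not separate splice forms such as the IIIb and IIIc forms of *Fgfr2*.

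In the GENCODE M21 annotation of GRCm38, *Fgfr1* lies at chr8:25513654-25575718, *Fgfr3* at chr5:33721674-33737068, and *Fgfrl1* at chr5:108692382-108706924, all on the plus strand. The annotated span of *Fgfr2*, on the minus strand, runs over chr7:130162451-133123350 and crosses many other genes on both strands. *Fgf7* lies at chr2:126034658-126091185, *Fgf2* at chr3:37348346-37410108, *Fgf10* at chr13:118669791-118792115, and *Fgf18* at chr11:33117430-33147400. *Fgf2* overlaps *Nudt6* and *Fgf2os* on the other strand and *Gm43439* on its own strand, and *Fgf7* overlaps *Fam227b* on the other strand. UMIs of a shared exon on the same strand could not be assigned with certainty.

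*Fgfr3* and *Fgfrl1* were both highest in *Cnmd*-high cells at day 10 and day 14, though their order over the other classes differed. *Fgfr2* was highest in *Aspn*-high cells on both days. For this reason the promoters of *Fgfr3*, *Fgfrl1*, and *Fgfr2* are shown. Each runs from 250 bases before to 50 bases after a RefSeq start site on GRCm38.p6 and reads 5′ to 3′ along the gene. Capitals mark the GC box GGGCGG, the CCAAT box CCAAT, and the SOX core ACAAAG or ACAATG, on either strand. RefSeq promoters were found for 7 of the 9 members, and the *Fgfr1* promoter was not among them.
Fgfr3, chr5:33721474-33721773, plus strand: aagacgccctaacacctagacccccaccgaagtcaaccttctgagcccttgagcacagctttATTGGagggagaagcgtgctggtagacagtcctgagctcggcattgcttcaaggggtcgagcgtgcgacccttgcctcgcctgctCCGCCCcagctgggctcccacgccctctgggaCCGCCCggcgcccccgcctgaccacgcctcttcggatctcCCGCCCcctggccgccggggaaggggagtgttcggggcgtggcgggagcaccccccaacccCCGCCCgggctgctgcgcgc
Fgfrl1, chr5:108693979-108694278, plus strand: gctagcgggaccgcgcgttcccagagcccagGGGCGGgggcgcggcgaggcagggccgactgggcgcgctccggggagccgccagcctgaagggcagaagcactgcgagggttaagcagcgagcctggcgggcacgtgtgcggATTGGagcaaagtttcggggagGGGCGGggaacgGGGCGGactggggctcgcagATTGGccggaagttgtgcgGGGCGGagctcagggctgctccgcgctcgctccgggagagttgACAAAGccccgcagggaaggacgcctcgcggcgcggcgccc
Fgfr2, chr7:130266759-130267058, minus strand: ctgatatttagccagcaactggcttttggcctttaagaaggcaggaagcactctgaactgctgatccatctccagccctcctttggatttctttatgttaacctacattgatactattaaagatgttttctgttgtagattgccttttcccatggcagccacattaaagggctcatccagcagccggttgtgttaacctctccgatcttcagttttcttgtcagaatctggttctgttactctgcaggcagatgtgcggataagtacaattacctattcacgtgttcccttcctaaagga
The *Fgfr3* promoter shown held 4 GC boxes, 1 CCAAT box, and no SOX core in 69.7% GC. A second RefSeq start of *Fgfr3*, with its window at chr5:33722056-33722355, held 2 GC boxes and neither of the other motifs in 73% GC. The *Fgfrl1* promoter held 4 GC boxes, 2 CCAAT boxes, and 1 SOX core in 73.7% GC. The *Fgfr2* promoter held none of the 3 motifs in 43.7% GC. Among 32851 promoters of the same length, 35.7% held a GC box, 37.4% a CCAAT box, and 28.6% a SOX core, and the median GC content was 52.7%. A match describes the letters and says nothing of binding.

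Among the *Aspn*-high, *Cnmd*-high, *Col10a1*-high, and *Ifitm5*-high classes, *Fgf7* and *Fgf18* were highest in *Aspn*-high cells and *Fgf2* in *Cnmd*-high cells. The few *Chodl*-high cells, with at most 6 UMIs of any ligand on a day, are described apart. FGF7, also known as keratinocyte growth factor, is a mesenchymal ligand of the IIIb form of FGFR2. In *Aspn*-high cells *Fgf7* stood at 32.3 CPM (95% interval 29.4 to 35.4) at day 10 and 43.8 CPM (41.7 to 46.1) at day 14. *Cnmd*-high cells had 5.33 and 5.92 CPM, *Col10a1*-high cells 10.7 and 7.13 CPM, and *Ifitm5*-high cells 3.26 and 7.04 CPM. The *Aspn*-high class was thus above the 3 others on both days beyond counting error, while *Ifitm5*-high and *Cnmd*-high cells did not differ beyond it on either day. With cells thinned to 2000 UMIs, a UMI of *Fgf7* was found in 5.50% of *Aspn*-high cells at day 10 and 8.03% at day 14, against 0.923% and 0.932% of *Cnmd*-high cells. Without thinning these shares were 26.5%, 30.6%, 8.03%, and 9.33%. In the *Ptprc*-positive cells of day 7, which should lack the gene, the thinned share was 0.0808%, the unthinned share was 0.167%, and the median depth was 5045 UMIs, or 5338 in the cells deep enough to be thinned. The 173 *Ptprc*-positive cells of day 14 had a thinned share of 1.78% (0.37 to 5.10) and a level of 15.6 CPM (10.8 to 22.0). That level was above the *Cnmd*-high level of day 14, and the source of these UMIs was not tested. The *Aspn*-high cells had medians of 14897 and 14434 UMIs and the *Cnmd*-high cells 19069 and 20873.

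*Fgf18* encodes a ligand known for its action on chondrocytes and osteoblasts. Its level was 8.07 CPM (6.67 to 9.68) at day 10 and 3.45 CPM (2.86 to 4.12) at day 14 in *Aspn*-high cells. It was 1.23 and 0.714 CPM in *Cnmd*-high cells, 0.167 and 0.95 CPM in *Col10a1*-high cells, and 2.33 and 0.902 CPM in *Ifitm5*-high cells. The *Aspn*-high class was the highest of these 4 on both days, and the *Col10a1*-high value of day 10 came from 1 UMI. Even in *Aspn*-high cells *Fgf18* was seen in only 4.14% of cells at day 10 and 3.42% at day 14 without thinning.

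FGF2 is a ligand stored on heparan sulfate in the matrix, and FGF1 is a ligand of all the signaling receptors. The level of *Fgf2* was 8.82 CPM (8.04 to 9.67) at day 10 and 6.70 CPM (5.85 to 7.63) at day 14 in *Cnmd*-high cells, against 5.01 and 2.80 CPM in *Aspn*-high cells. It was lowest in *Ifitm5*-high cells, at 0.931 and 0.361 CPM, from 2 UMIs on each day. *Fgf1* was at 3.11 and 2.26 CPM in *Cnmd*-high cells and 0.835 and 0.77 CPM in *Aspn*-high cells. Its *Col10a1*-high level was 2.34 CPM (1.28 to 3.93) at day 10 and 5.16 CPM (4.06 to 6.46) at day 14, so that the order of *Col10a1*-high and *Cnmd*-high cells differed between the days. *Fgf10*, a mesenchymal ligand of limb and lung buds, gave 1 UMI at day 10 and 1 at day 14, each in an *Aspn*-high cell. Read as 3 counts, the 0 in *Cnmd*-high cells allows 0.0575 CPM of *Fgf10* at day 10 and 0.0893 CPM at day 14. The exact upper limits were 0.0708 and 0.110 CPM.

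**Figure D1:**
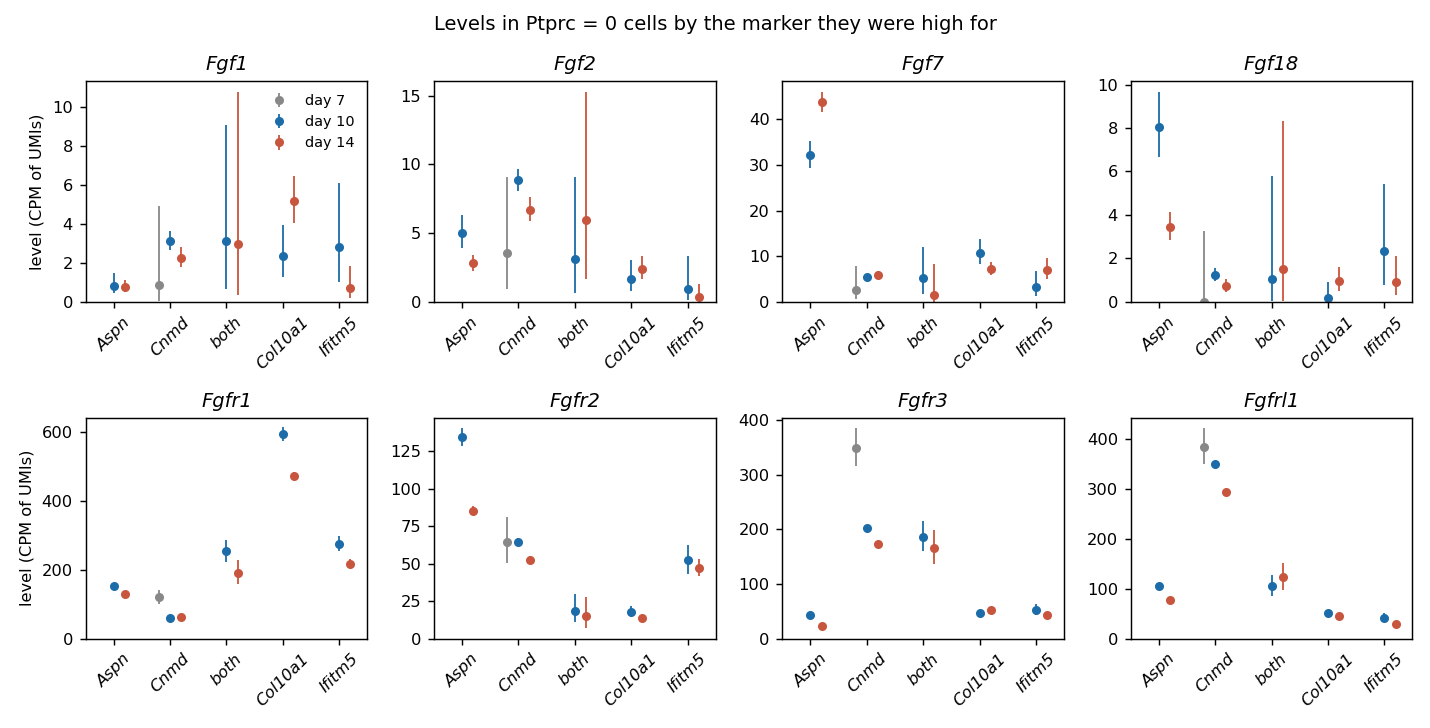
Levels of 8 members in CPM of summed UMIs (y axis, linear, from 0) in cells high for *Aspn*, *Cnmd*, *Cnmd* and *Col10a1* together (both), *Col10a1*, or *Ifitm5* (x axis), by day, for classes with at least 20 cells. Points are 1 library each and bars are exact Poisson 95% intervals of the counts. *Fgf7*, *Fgf18*, and *Fgfr2* are highest in *Aspn*-high cells, *Fgfr3* and *Fgfrl1* in *Cnmd*-high cells, and *Fgfr1* in *Col10a1*-high cells.

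The signaling receptors were each highest in a different class. *Fgfr1* was highest in *Col10a1*-high cells, with 593 CPM (574 to 613) in the day 10 library and 473 CPM (462 to 484) in that of day 14. It was at 274 and 217 CPM in *Ifitm5*-high cells, 152 and 130 CPM in *Aspn*-high cells, and 59.2 and 62.1 CPM in *Cnmd*-high cells. This order, *Col10a1*, *Ifitm5*, *Aspn*, *Cnmd*, was the same on both days, and each neighbor differed beyond counting error. In *Cnmd*-high cells of day 7 *Fgfr1* was at 120 CPM (100.3 to 141.5), above the later days. The 2 *Col10a1*-high cells of day 7 held 55 UMIs of *Fgfr1*, none of *Fgfr2*, and 3 of *Fgfr3*.

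*Fgfr3* was highest in *Cnmd*-high cells, at 350 CPM (316 to 386) at day 7, 203 CPM (199 to 207) at day 10, and 173 CPM (169 to 178) at day 14. *Col10a1*-high cells had 46.3 CPM and then 52.5 CPM at the later days. *Ifitm5*-high cells had 52.2 and 42.2 CPM, and *Aspn*-high cells had 43.2 and 22.2 CPM. At day 10 the *Aspn*-high, *Col10a1*-high, and *Ifitm5*-high intervals overlapped, whereas at day 14 the *Aspn*-high class was below both of the others. Cells high for *Cnmd* and *Col10a1* together kept an *Fgfr3* level of 187 and 166 CPM, and their *Fgfr1* level of 253 and 191 CPM lay between those of the *Cnmd*-high and *Col10a1*-high classes. These 44 and 28 cells had medians of 22488 and 25249.5 UMIs, above 19012 and 20843 in *Cnmd*-high cells and 17163 and 17503.5 in *Col10a1*-high cells. Whether some of them were doublets was not tested.

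*Fgfr2* was highest in *Aspn*-high cells, at 135 CPM (129 to 141) at day 10 and 85.3 CPM (82.2 to 88.4) at day 14. *Cnmd*-high cells had 64.7 CPM at day 7, 64.6 CPM at day 10, and 52.7 CPM at day 14. *Ifitm5*-high cells had 52.2 and 47.1 CPM, and *Col10a1*-high cells were lowest at 17.9 and 13.7 CPM. The class high for *Cnmd* and *Col10a1* together had 18.7 and 14.9 CPM of *Fgfr2*, a level within the counting error of the *Col10a1*-high class.

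*Fgfrl1* was highest in *Cnmd*-high cells as well, at 384 CPM (349 to 422) at day 7, 349 CPM (344 to 354) at day 10, and 293 CPM (287 to 299) at day 14. *Aspn*-high cells had 104 and 76.7 CPM at day 10 and day 14, *Col10a1*-high cells 50.2 and 44.3 CPM, and *Ifitm5*-high cells 41.9 and 28.5 CPM. Unlike *Fgfr3*, *Fgfrl1* was at 105 and 122 CPM in cells high for *Cnmd* and *Col10a1* together, below the *Cnmd*-high class on both days. In *Ptprc*-positive cells of day 7 the 4 receptors were at 9.62 CPM or less. In the 173 *Ptprc*-positive cells of day 14 *Fgfr1* was at 97.2 CPM (84.3 to 111.4), above the 62.1 CPM of *Cnmd*-high cells.

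Thinned to 2000 UMIs, a UMI of *Fgfr1* was found in 65.4% of *Col10a1*-high cells at day 10 and 57.4% at day 14. A UMI of *Fgfr3* was found in 29.7% and 26.1% of *Cnmd*-high cells, and a UMI of *Fgfrl1* in 47.2% and 43.0%. A UMI of *Fgfr2* was found in 24.0% and 13.3% of *Aspn*-high cells. Without thinning these shares were 96.4% and 97.8% for *Fgfr1*, 83.0% and 77.8% for *Fgfr3*, 96.4% and 94.6% for *Fgfrl1*, and 66.8% and 49.8% for *Fgfr2*. The thinned shares in *Ptprc*-positive cells of day 7 were 0.549% for *Fgfr1*, 0.178% for *Fgfr2*, 0.339% for *Fgfr3*, and 0.517% for *Fgfrl1*. In those of day 14 they were 10.1%, 3.55%, 5.92%, and 7.69% in the same order. After thinning, each receptor was thus most frequent in the class where its level was highest, although the *Fgfr2* shares of *Aspn*-high and *Cnmd*-high cells, 13.3% (11.9 to 14.7) and 11.6% (10.0 to 13.2), overlapped at day 14. Without thinning this did not hold throughout, since *Fgfr2* was found in 56.6% of *Cnmd*-high cells at day 14 and *Fgfr1* in 97.5% of *Ifitm5*-high cells at day 10. The levels of single cells varied widely within a class. In *Col10a1*-high cells of day 10 the quartiles of *Fgfr1* were 309, 583, and 890 CPM, and in *Cnmd*-high cells of that day those of *Fgfrl1* were 198, 321, and 473 CPM. For *Fgfr3* in the same *Cnmd*-high cells they were 60.9, 157, and 294 CPM. *Fgfr2* in *Aspn*-high cells had a lower quartile of 0 on both days and a median of 88.2 CPM at day 10 and 0 at day 14.

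The mix of the 3 signaling receptors does not use the total UMIs of a class, but cells with more UMIs weigh more in it. In *Aspn*-high cells *Fgfr1* made up 46.1% (44.7 to 47.6) of the UMIs of *Fgfr1*, *Fgfr2*, and *Fgfr3* at day 10 and 54.7% (53.6 to 55.8) at day 14, *Fgfr2* 40.8% and 35.9%, and *Fgfr3* 13.1% and 9.34%. In *Cnmd*-high cells *Fgfr3* made up 65.5% (61.6 to 69.3) at day 7, 62.1% (61.4 to 62.9) at day 10, and 60.1% (59.2 to 61.1) at day 14. As a mean over cells this share was 60.3% at day 10 and 56.3% at day 14, below the intervals of those days. In *Col10a1*-high cells *Fgfr1* made up 90.2% (89.3 to 91.1) and 87.7% (87.0 to 88.4). The *Fgfr1* shares of these classes did not overlap on either day, and the largest share belonged to *Fgfr3* only in *Cnmd*-high cells among the marker classes with at least 20 cells. *Ifitm5*-high cells had 72.4% and 70.9% of *Fgfr1*, with *Fgfr2* and *Fgfr3* at 13.8% each at day 10. Cells high for *Cnmd* and *Col10a1* together had 55.2% and 51.4% of *Fgfr1*, 40.7% and 44.6% of *Fgfr3*, and 4.07% and 4.02% of *Fgfr2*.

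**Figure D2:**
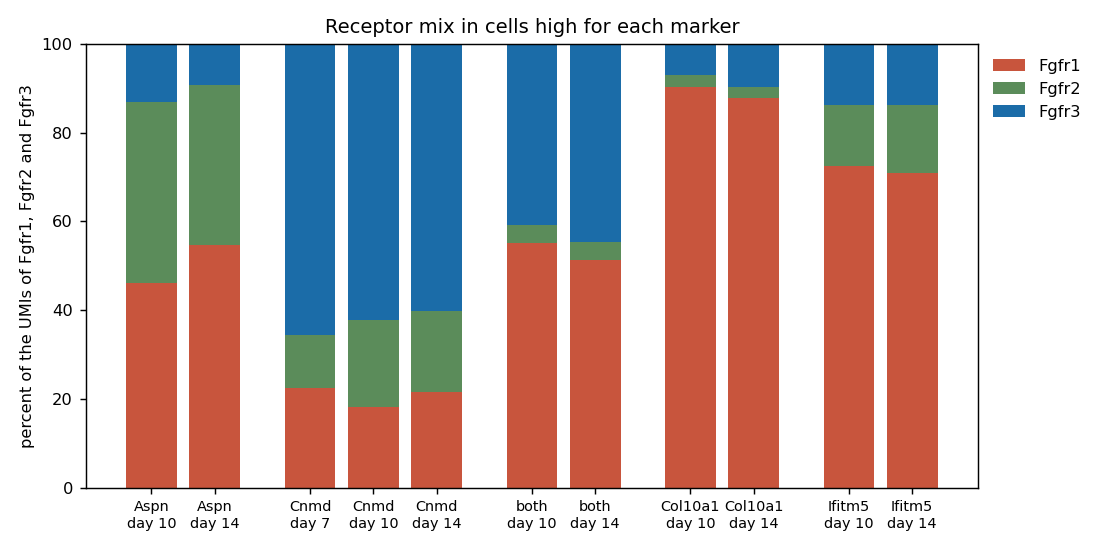
Share of *Fgfr1*, *Fgfr2*, and *Fgfr3* in their summed UMIs (y axis, percent) in each marker class and day with at least 20 cells (x axis; both means high for *Cnmd* and *Col10a1*). *Fgfr3* takes 60.1% to 65.5% in *Cnmd*-high cells and *Fgfr1* takes 87.7% to 90.2% in *Col10a1*-high cells.

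Along *Cnmd*, the gene of the cartilage protein chondromodulin, the mix turned from *Fgfr1* to *Fgfr3*. At day 10 *Fgfr1* fell from 66.5% of the receptor UMIs in cells without *Cnmd* to 52.0% at 300 to 1000 CPM, 26.1% at 1000 to 3000 CPM, and 17.7% (16.9 to 18.4) at 3000 CPM and more. At day 14 the same steps held 68.1%, 57.1%, 29.7%, and 20.1% of *Fgfr1*. *Fgfr3* rose over these steps from 10.8% to 28.3%, 56.1%, and 62.0% at day 10 and from 10.4% to 26.2%, 52.7%, and 61.3% at day 14. The share of *Fgfr2* stayed between 16.7% and 22.7% over all *Cnmd* steps of both days. Cells with *Cnmd* above 0 and below 300 CPM were at 68.8% and 71.0% of *Fgfr1*, slightly above the cells without *Cnmd*. In the 29 cells of day 7 at 3000 CPM and more *Fgfr3* took 79.3% (74.2 to 83.7).

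Along *Col10a1*, the collagen gene of hypertrophic chondrocytes, the mix turned toward *Fgfr1* at the upper end. In cells at 10000 CPM of *Col10a1* and more, *Fgfr1* took 84.4% (83.3 to 85.3) at day 10 and 85.5% (84.8 to 86.2) at day 14. At 1000 to 10000 CPM the days differed, with *Fgfr1* at 46.9% (45.2 to 48.6) at day 10 and 70.4% (69.3 to 71.5) at day 14. *Fgfr3* was at 46.7% and 23.0% in this step. Below 1000 CPM *Fgfr1* stayed between 34.2% and 38.1% at day 10 and between 40.4% and 51.2% at day 14. *Fgfr2* fell from 27.1% to 3.32% at day 10 and from 29.4% to 2.71% at day 14 from the lowest to the highest step.

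**Figure D3:**
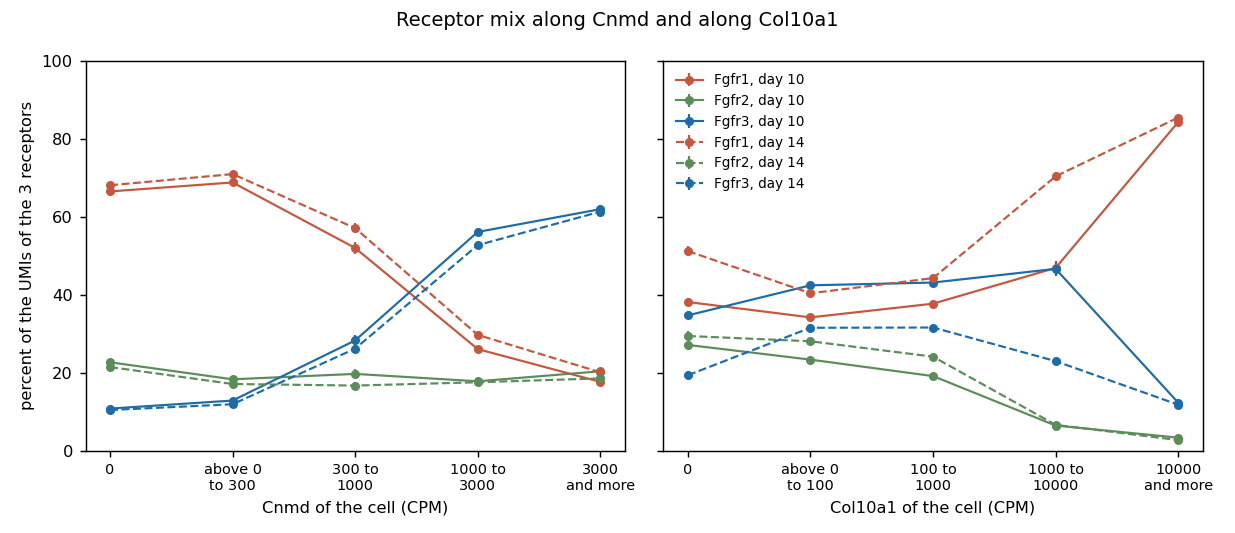
Share of each receptor in the summed UMIs of *Fgfr1*, *Fgfr2*, and *Fgfr3* (y axis, percent) in steps of *Cnmd* (left) and *Col10a1* (right) of the single cells, in CPM, for day 10 (solid) and day 14 (dashed). Bars are Clopper-Pearson 95% intervals, often smaller than the points. *Fgfr3* rises along *Cnmd* to 62.0% and 61.3%, and *Fgfr1* reaches 84.4% and 85.5% at the highest *Col10a1* step.

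The 2 markers were then combined. Among cells with *Cnmd* at 1000 CPM and more, *Fgfr1* rose from 19.0% with *Col10a1* under 1000 CPM to 28.4% at 1000 to 10000 CPM and 62.0% at 10000 CPM and more at day 10. At day 14 the same cells had 21.3%, 37.0%, and 61.6%. Among cells with *Cnmd* under 300 CPM, *Fgfr1* was already at 61.4% and 58.7% with *Col10a1* under 1000 CPM and reached 92.6% and 90.1% at 10000 CPM and more. *Fgfr1* was thus higher with more *Col10a1* at each level of *Cnmd*, and lower with more *Cnmd* at each level of *Col10a1*, in all 9 fields on both days. Of the cells at 1000 to 10000 CPM of *Col10a1*, 241 of 405 at day 10 and 238 of 1040 at day 14 had *Cnmd* at 1000 CPM and more. The cells of this step thus differed between the days in their *Cnmd*. With *Cnmd* under 300 CPM, *Fgfr1* in this step was at 77.6% at day 10 and 83.6% at day 14. It was at 64.7% and 69.6% at 300 to 1000 CPM, with overlapping intervals, and at 28.4% and 37.0% at 1000 CPM and more. The part of *Cnmd* in the day difference was not tested. *Fgfr2* fell with *Col10a1* at each level of *Cnmd*, from 21.5% to 3.21% at the highest *Cnmd* level of day 10.

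The levels showed which receptor moved. In deciles of the cells with a UMI of *Col10a1*, *Fgfr1* rose from 95.6 CPM in the lowest to 528 CPM in the highest decile at day 10 and from 102 to 471 CPM at day 14. Median *Col10a1* was 40.3 CPM in the lowest decile at day 10 and 48.5 CPM at day 14. With so few UMIs of *Col10a1*, its CPM depends on the total UMIs of the cell, so the low deciles also order cells by depth. The part of depth in these courses was not tested. *Fgfr3* took an uneven course. At day 10 it was at 165 CPM (157 to 172) in the lowest decile and 124 CPM (117 to 132) in the second. It was then at 148 CPM in the seventh decile, 210 CPM in the eighth, and 196 CPM in the ninth, with median *Col10a1* of 178, 377, and 3715 CPM, and dropped to 71.7 CPM in the highest. At day 14 *Fgfr3* was highest in the eighth decile, at 131 CPM (125 to 138), and fell to 79.0 and 57.4 CPM in the last deciles. *Fgfr2* began to fall earlier, from 78.9 CPM in the seventh decile of day 10 to 50.2, 27.5, and 20 CPM in the following ones. *Fgfrl1* fell from 269 to 61.7 CPM at day 10 and from 172 to 45.9 CPM at day 14.

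**Figure D4:**
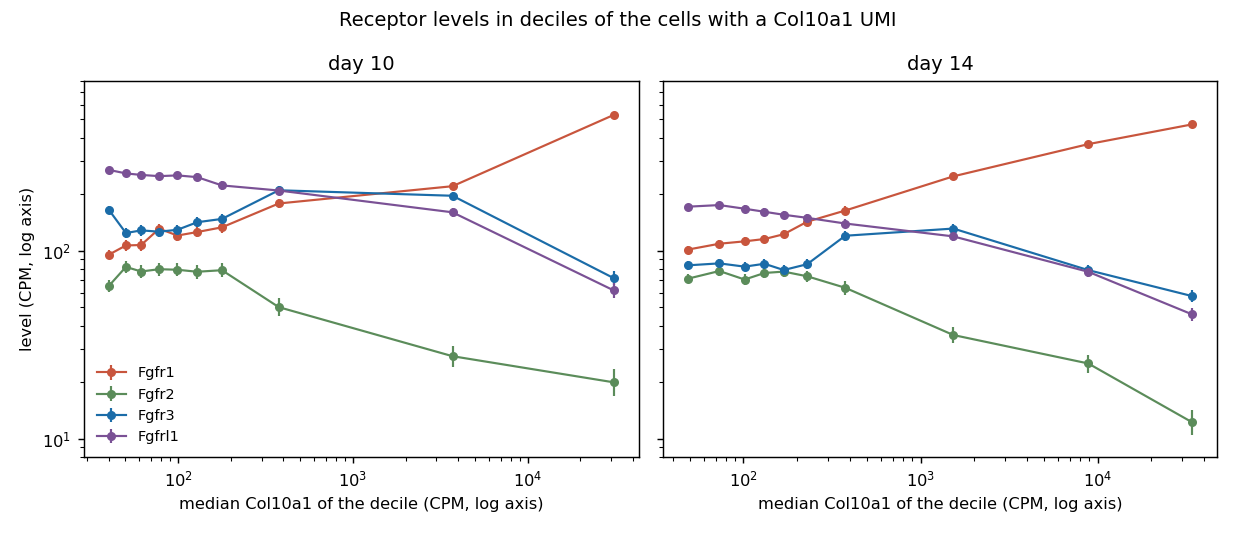
Levels of *Fgfr1*, *Fgfr2*, *Fgfr3*, and *Fgfrl1* (y axis, CPM, log scale) in deciles of the *Ptprc*-negative cells with a UMI of *Col10a1*, against the median *Col10a1* of the decile (x axis, CPM, log scale), at day 10 and day 14. Bars are exact Poisson 95% intervals. *Fgfr1* rises to 528 and 471 CPM in the highest decile while *Fgfr2* falls to 20 and 12.2 CPM, and *Fgfr3* peaks in the eighth decile.

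Single cells were asked whether they held *Fgfr1* and *Fgfr3* together, after thinning to 10000 UMIs. Cells below this depth were left out. At day 10 and day 14 this kept 777 of 967 and 1800 of 2453 *Aspn*-high cells. It kept 2492 of 2728 and 1494 of 1619 *Cnmd*-high cells, and 296 of 357 and 729 of 850 *Col10a1*-high cells. All shares here are of the cells kept. In *Cnmd*-high cells 48.8% (46.8 to 50.7) had *Fgfr3* without *Fgfr1* at day 10 and 24.3% (22.6 to 26.1) had both, and at day 14 these shares were 42.7% and 21.2%. In *Col10a1*-high cells 66.6% (60.9 to 71.9) had *Fgfr1* without *Fgfr3* at day 10 and 65.3% at day 14, and 27.0% and 30.0% had both. The both-marker class had 16 of 40 cells with *Fgfr1* and *Fgfr3* at day 10 and 11 of 25 at day 14. No UMI of the 3 receptors was left in 7.70% and 11% of *Cnmd*-high, 9.78% and 17.5% of *Aspn*-high, and 2.70% and 2.74% of *Col10a1*-high cells. *Fgfr1* and *Fgfr2* occurred together in 38.9% and 28.5% of *Aspn*-high cells, more often than in *Cnmd*-high cells (15.9% and 17.1%). The 97 and 250 *Ifitm5*-high cells kept had shares of 37.1% (27.5 to 47.5) and 24.0% (18.8 to 29.8). These overlapped the *Aspn*-high shares on both days.

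Ratios between classes were taken within each library and called when they reached 2-fold in the same direction at day 10 and day 14, over genes with at least 50 UMIs in the pair of classes on each day. This minimum is on the sum of both classes, so a gene can pass it through the class where it is high. From *Aspn*-high to *Cnmd*-high cells, 8 members could be compared, of which 3 were higher and 3 lower, while 4.9% of 12450 genes were higher and 13.9% lower. *Fgfr3* was higher by a log2 ratio of 2.23 (2.12 to 2.35) and 2.97 (2.86 to 3.08), *Fgfrl1* by 1.74 (1.67 to 1.82) and 1.93 (1.87 to 2.00), and *Fgf1* by 1.90 (1.05 to 2.88) and 1.55 (0.90 to 2.25). With cells thinned to 2000 UMIs the day 10 ratio of *Fgf1* was 0.51, which ended its call. *Aspn*-high cells held only 12 and 27 UMIs of *Fgf1*. *Fgf7* was lower, at a log2 ratio of -2.60 and -2.89, *Fgf18* at -2.72 and -2.27, and *Fgfr1* at -1.36 and -1.06. The *Fgfr1* call rested on the cutoff, since its day 14 ratio was between -0.92 and -0.99 with a lower marker minimum, overlapping classes, cells over 30000 UMIs left out, a total without the 50 largest genes, or thinning. *Fgf2* had ratios of 0.82 and 1.26 and *Fgfr2* of -1.06 and -0.69, past 2-fold on 1 day each. The median log2 ratio was -0.12 and 0.28 for the members and -0.32 and -0.33 for all genes compared.

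From *Cnmd*-high to *Col10a1*-high cells, 7 members could be compared, of which 1 was higher and 4 lower, while 8.33% of 11904 genes were higher and 9.55% lower. *Fgfr1* was higher by a log2 ratio of 3.32 (3.25 to 3.39) at day 10 and 2.93 (2.86 to 3.00) at day 14, a fold of 10.0 and 7.62. *Fgfrl1* was lower, at -2.80 and -2.73, *Fgfr3* at -2.13 and -1.72, *Fgfr2* at -1.85 and -1.94, and *Fgf2* at -2.40 and -1.5. After thinning to 2000 UMIs the day 14 ratio of *Fgf2* was -0.91, so that its call was lost. *Col10a1*-high cells held only 10 and 35 UMIs of *Fgf2*. *Fgf1* and *Fgf7* did not pass, with ratios of -0.41 and 1.19 for *Fgf1* and 1.01 and 0.27 for *Fgf7*. The members' median was -1.85 and -1.5 and that of all genes 0.10 and 0.04.

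From *Aspn*-high to *Ifitm5*-high cells, none of 7 members was higher and 4 were lower, while 3.65% of 10657 genes were higher and 15.5% lower. *Ifitm5* marks osteoblasts. The lower members were *Fgf7* at -3.31 and -2.64, *Fgf2* at -2.43 (-5.50 to -0.52) and -2.95 (-6.02 to -1.06), *Fgf18* at -1.79 (-3.44 to -0.53) and -1.94 (-3.58 to -0.67), and *Fgfrl1* at -1.31 and -1.43. *Ifitm5*-high cells held only 7 and 39 UMIs of *Fgf7*, 2 and 2 of *Fgf2*, and 5 and 5 of *Fgf18*. These genes thus passed the minimum through the *Aspn*-high cells. The *Fgf18* intervals of both days and the *Fgf2* interval of day 10 reached under 2-fold. *Fgfr1* was at 0.85 (0.72 to 0.98) and 0.74 (0.65 to 0.83), below 2-fold with an interval above 0 on both days. *Fgfr2* was at -1.37 and -0.86 and *Fgfr3* at 0.27 (-0.03 to 0.56) and 0.93 (0.71 to 1.14). With the lower marker minimum the *Fgfrl1* ratio was -0.70 and -0.94.

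**Figure D5:**
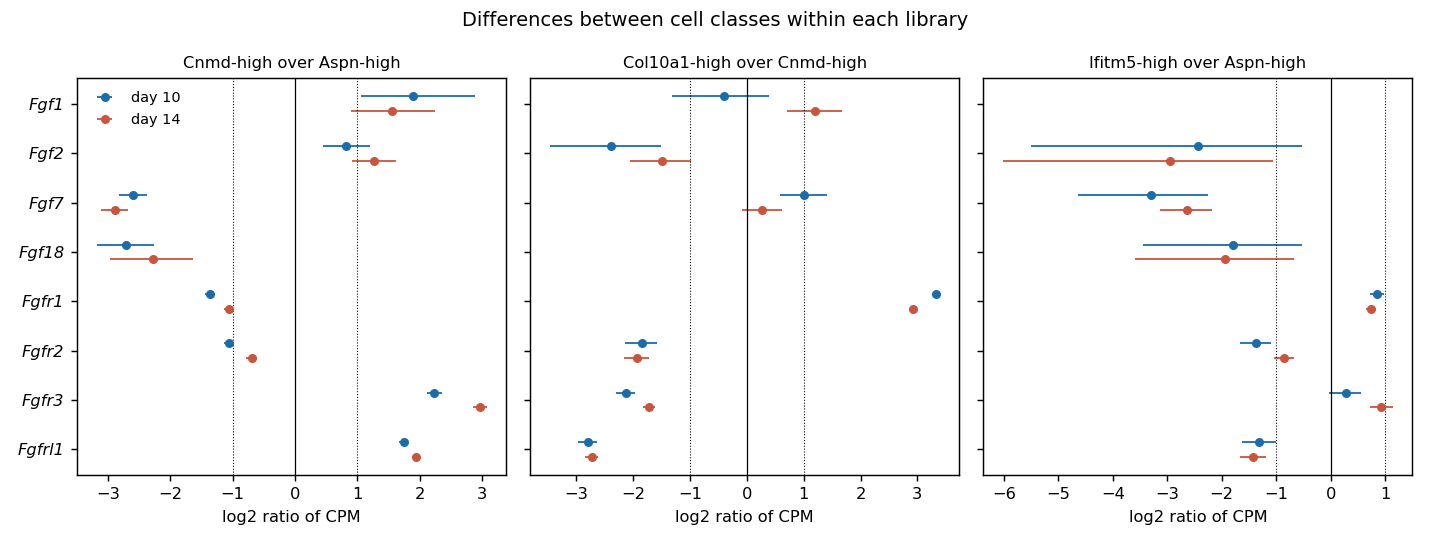
Log2 ratios of CPM between pairs of marker classes (x axis) for the members with enough UMIs on both days (y axis), at day 10 and day 14, with exact binomial 95% intervals of the counts. Dotted lines mark 2-fold. *Fgfr3* and *Fgfrl1* lie right of 0 in *Cnmd*-high over *Aspn*-high cells and left of 0 in *Col10a1*-high over *Cnmd*-high cells, and *Fgfr1* does the opposite.

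The other genes of the pathway were 49, from ligands to feedback inhibitors. Of 17 other ligands only 1 had enough UMIs for a comparison, in the *Cnmd*-high and *Aspn*-high pair, and it did not pass. From *Aspn*-high to *Cnmd*-high cells, 29 pathway genes were compared, of which 4 were higher and 10 lower. Of 12450 genes, 4.9% were higher and 13.9% lower in this pair. The fourth signaling receptor, *Fgfr4*, was higher at 2.51 CPM against 0.278 CPM at day 10 and 1.58 against 0.228 CPM at day 14, from 4 and 8 UMIs in *Aspn*-high cells. Heparan sulfate proteins moved in both directions, with *Sdc3*, *Sdc4*, and *Gpc6* higher and *Sdc1* and *Sdc2* lower. The syndecan gene *Sdc4* was at 653 and 646 CPM in *Cnmd*-high cells and 264 and 263 CPM in *Aspn*-high cells, whereas *Sdc1* was at 29.3 and 31.9 CPM against 140 and 158 CPM. *Sulf1* and *Sulf2*, which encode enzymes that remove sulfate from heparan sulfate, were lower as well, with log2 ratios of -1.69 and -2.07 for *Sulf1* and -1.24 and -1.94 for *Sulf2*. The modulators *Flrt2*, *Frs3*, and *Il17rd* and the targets *Spry1*, *Spred3*, and *Etv1* were also lower. *Spry1*, a feedback inhibitor, was at 0.882 and 0.923 CPM in *Cnmd*-high cells against 7.79 and 6.73 CPM in *Aspn*-high cells.

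From *Cnmd*-high to *Col10a1*-high cells, 4 of 25 pathway genes were higher and 5 lower, against 8.33% and 9.55% of 11904 genes. The feedback genes *Spry4* and *Spred3* were higher, together with the modulator *Il17rd* and with *Sulf1*. *Spry4* was at 6.02 and 4.14 CPM in *Col10a1*-high cells against 0.767 and 0.714 CPM in *Cnmd*-high cells, a log2 ratio of 2.97 (2.28 to 3.66) and 2.54 (1.83 to 3.28). *Sulf1* was at 201 and 150 CPM against 45 and 39.9 CPM, while *Sulf2* was lower at 27.3 and 15.7 CPM against 64.8 and 39.0 CPM. *Fgfr4*, *Gpc6*, *Hspg2*, and *Flrt2* were lower too. *Dusp6* had ratios of 0.45 and 1.01 and *Spry2* of 0.12 and -0.16, so neither passed. From *Aspn*-high to *Ifitm5*-high cells, 1 of 23 pathway genes was higher and 7 lower, against 3.65% and 15.5% of 10657 genes. The higher gene was *Ccnd1*, which encodes cyclin D1, at 120 and 110 CPM against 38.1 and 29.8 CPM. The 7 lower genes were *Sdc1*, *Sulf1*, *Sulf2*, *Flrt2*, *Il17rd*, *Dusp6*, and *Etv1*. *Dusp6*, a MAP kinase phosphatase, was at 2.33 and 6.67 CPM in *Ifitm5*-high cells against 33.6 and 16.1 CPM in *Aspn*-high cells.

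*Chodl*-high cells were few and shallow, with 38 cells at a median of 7299.5 UMIs at day 10 and 11 cells at 8888 UMIs at day 14. They held 8050 and 9921 CPM of 5 tendon markers, against 2519 and 2517 CPM in *Aspn*-high cells, and 58.4 CPM of 4 endothelial markers at day 10. *Fgfr1* was at 163 CPM (123 to 212) at day 10 and 136 CPM (76.0 to 223.9) at day 14, within counting error of the *Aspn*-high level. *Fgf7* had no UMI at day 10 and 6 UMIs at day 14. The count of 0 allows 8.76 CPM when read as 3 counts, and its exact upper limit was 10.8 CPM. *Fgf2* was at 14.6 CPM (4.74 to 34.1) from 5 UMIs at day 10 and 18.1 CPM (2.19 to 65.4) from 2 UMIs at day 14, intervals that held the *Cnmd*-high levels. *Fgf18* had 3 UMIs on each day, giving 8.76 CPM (1.81 to 25.6) at day 10 and 27.2 CPM (5.6 to 79.4) at day 14, of which the second lay above the *Aspn*-high level. *Fgfr2* was at 40.9 CPM (22.3 to 68.6) at day 10, and *Fgfr3* was at 14.6 CPM from 5 UMIs, the lowest *Fgfr3* level of the marker classes with at least 20 cells that day. The receptor mix was 74.7% *Fgfr1* (63.3 to 84.0), 18.7% *Fgfr2*, and 6.67% *Fgfr3*. With every cell that had 1 UMI of *Chodl* counted, 70 cells at day 10, the ratio of *Fgfr3* to *Aspn*-high cells turned from a log2 of -1.57 (-3.19 to -0.34) to 0.18 (-0.35 to 0.67), so its direction depended on the cutoff.

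The feedback genes and targets of the pathway stood out in the same cells, a result chosen after its values were seen. At day 10, 9 of 11 target and feedback genes had an interval above the *Aspn*-high level and none had one below it. Of 9 with enough UMIs, 7 were higher by 2-fold or more, against 9.79% of 10474 genes in this pair. *Spry1* was at 166 CPM (126 to 216) and was found in 26 of 38 cells, against 7.79 CPM in *Aspn*-high cells. *Etv4*, which encodes an ETS transcription factor, was at 111 CPM (78.5 to 152.2) in 15 of 38 cells, against 2.23 CPM. *Dusp6* was at 149 CPM (111 to 196) in 16 cells, against 33.6 CPM. At day 14 the 11 *Chodl*-high cells had 72.4 CPM of *Spry1* (31.3 to 142.7) from 8 UMIs and 36.2 CPM of *Etv4* (9.87 to 92.7) from 4 UMIs, and 5 of 11 genes had an interval above the *Aspn*-high level. The set of every cell with a UMI of *Chodl* includes the *Chodl*-high cells. In it 9 of 11 were above at day 10 and 6 of 11 at day 14, and *Spry1* was at 90.3 and 45.4 CPM. At day 10 the 70 cells of this set held 38 UMIs of *Etv4*, against 38 in the *Chodl*-high cells. For *Dusp6* these counts were 53 against 51, and for *Spry1* 67 against 57. The wider set is therefore no separate check of the result.

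Between day 10 and day 14, *Fgfr2*, *Fgfr3*, and *Fgf18* were lower in *Aspn*-high cells, with log2 ratios of -0.66 (-0.74 to -0.58), -0.96 (-1.12 to -0.81), and -1.23 (-1.60 to -0.85). *Fgf2*, *Fgfrl1*, and *Fgfr1* were lower too, at -0.84 (-1.30 to -0.38), -0.44 (-0.53 to -0.35), and -0.23 (-0.30 to -0.16). *Fgf18* was the only one past 2-fold of the 7 members with enough UMIs, where 3.64% of 12406 genes were past it in either direction. It was found in only 4.14% and 3.42% of these cells without thinning, with single cells at up to 1425 and 1202 CPM. Its interval does not cover such differences between cells. *Fgf7* was higher at day 14 by 0.44 (0.29 to 0.59). In *Cnmd*-high cells none of 8 members passed 2-fold and 3.01% of all genes did, with *Fgfr3* at -0.23 (-0.28 to -0.18), *Fgfrl1* at -0.25 (-0.29 to -0.22), and *Fgfr1* at 0.07 (-0.01 to 0.15). In *Col10a1*-high cells 1 of 6 passed, *Fgf1* at 1.14 (0.31 to 2.08), and 2.36% of all genes did, and *Fgfr1* was at -0.33 (-0.39 to -0.27). The *Fgfr1* share of the mix was higher at day 14 than at day 10 in *Aspn*-high and *Cnmd*-high cells and lower in *Col10a1*-high cells. With 1 library a day these differences cannot be told apart from differences between libraries.

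Over 12 combinations of class and day with at least 50 cells, the patterns of the members were compared on log2 of CPM plus 10. These points share libraries, and the correlations are a description. *Fgfr3* and *Fgfrl1* had a Pearson correlation of 0.87, and *Fgfr1* and *Fgfrl1* one of -0.75. Of 15550 genes, those most like *Fgfr3* were *Papss2*, which encodes an enzyme making the sulfate donor for cartilage matrix (0.98), *Kcna5* (0.97), and *Ldlrad3* (0.97). Those most like *Fgfrl1* were *Sidt2* (0.99), *Prelp*, a matrix proteoglycan gene (0.99), and *Prr5* (0.98). Those most like *Fgfr2* were *Prrx1*, a transcription factor gene of limb mesenchyme (0.97), *Mmp2*, a matrix metalloproteinase gene (0.96), and *Mmp23* (0.95). Those most like *Fgfr1* were *Maml3*, which encodes a Notch coactivator, *Atmin*, and *Pdk4*, each at 0.96. *Fgf7* was most like *Gm15261* (0.97), *Akr1b8* (0.97), and *Sod3* (0.97), and *Fgf18* was most like *Jph4* (0.97), *Kcns3* (0.97), and *Crabp1* (0.96). The level of *Fgf18* was at most 8.07 CPM in these points, below the 10 CPM added. Its correlations therefore rest on small differences between low counts.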

How the data were processed

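Callus cells were measured with a droplet 3' assay, in 1 library for each of day 7, day 10, and day 14. The deposited matrices hold counts of UMIs for each gene in each cell, which are whole numbers without normalization, on mm10 per the labels. The submitters' processing notes name Cell Ranger 3.0 and the matrix headers name software version 3.1.0. The study's methods name other versions of the kit and of this software. Groups came from the day in the labels.

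Cells with 500 to 5000 genes, at most 10% mitochondrial UMIs, and at most 5% hemoglobin UMIs were kept. Doublets were removed by no other step. A cell belonged to 1 class by the order *Chodl*, *Ifitm5*, *Cnmd* with *Col10a1*, *Col10a1*, *Cnmd*, *Aspn*. Levels are CPM of UMIs summed over a class, with exact Poisson intervals. Ratios have exact binomial and shares Clopper-Pearson intervals. UMIs mark molecules, and free RNA in the droplets was not corrected. A count of 0 was read as allowing 3 counts. No p-values were computed. Named genes were the 9 members, the pathway genes past 2-fold, and the 3 genes most like 6 of the members. The members, classes, and lists were chosen with earlier results of these data known.

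In a simulation of the *Cnmd*-high and *Aspn*-high pair at day 10, with 10393 genes of which 200 were changed, 100% of the changed ones came out in the simulated direction, and the simulated ratio lay inside 95.3% of the intervals. The class sums were drawn from the Poisson model that the intervals assume, without spread between cells. The simulation therefore checked the calculation only and cannot show how well the intervals cover the measured counts. Analyses used Python 3.11.15 with numpy 2.4.6, scipy 1.17.1, pandas 2.3.3, and matplotlib 3.10.9. Alternatives changed the marker minimum, the limits on cells, the scaling, and the depth.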

Additional observations from a re-analysis of the deposited data

Results flagged for a closer look

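Cells without *Ptprc* that fell outside the limits on genes, mitochondrial UMIs, or hemoglobin UMIs were used in no comparison, and they also held UMIs of *Fgfr1*, *Fgfr2*, and *Fgfr3*. Together the 3 receptors had 5237 UMIs in 1024 such cells at day 7, 10541 UMIs in 2208 cells at day 10, and 12629 UMIs in 3107 cells at day 14, above the limit that a count of 0 allows. *Fgfr1* was at 153, 149, and 154 CPM in them at day 7, day 10, and day 14, and *Fgfr3* at 121, 135, and 99.4 CPM. At day 7 these 1024 cells outnumbered the 447 cells within the limits.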

How the results depend on the processing

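The comparisons were repeated under other settings, each result under those that apply to it. Of 396 ratios past 2-fold, 368 were still past 2-fold the same way under them. Of 537 ratios, 2 were counted as turned. A change of sign was counted only where the main interval excluded equal levels, so sign changes of the less certain ratios are not in this count. Of 1479 levels and shares under these settings, 1061 stayed inside the main interval. The cause of each change below was not tested. In *Aspn*-high cells, the *Fgfr1* share of the 3 receptors at day 10 was 49.9% with the marker minimum lowered 2-fold and 37.6% with it raised 2-fold. It was 44.5% with overlapping classes, 48.1% without the upper limit on genes, and 48.3% without limits on cells. At day 14 it was 57.0% with the higher minimum, 55.8% without limits on cells, 56.8% as a mean over cells, and 53.4% with cells thinned to 2000 UMIs. In *Cnmd*-high cells, the *Fgfr3* share at day 10 was 60.0% with the lower minimum, 60.7% without cells above 30000 UMIs, 60.3% as a mean over cells, and 59.6% after thinning. At day 14 it was 57.2% with the lower and 58.3% with the higher minimum, 56.8% without cells above 30000 UMIs, 56.3% as a mean over cells, and 56.7% after thinning. In *Col10a1*-high cells, the *Fgfr1* share at day 10 was 86.7% with overlapping classes, 89.3% without the upper limit on genes, 88.9% without limits on cells, and 92.2% after thinning. At day 14 it was 89.5% with the higher minimum, 86.6% with overlapping classes, 86.8% without limits on cells, 88.6% without cells above 30000 UMIs, 88.5% as a mean over cells, and 89.7% after thinning. In the highest *Col10a1* step it was 82.6% at day 10 without the upper limit on genes and without any limits, 86.4% as a mean over cells, and 86.2% after thinning. At day 14 it was 83.4% without the upper limit, 83.3% without limits, 86.9% without cells above 30000 UMIs, 87.1% as a mean over cells and in 10 equal bins, and 88.5% after thinning.

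The log2 ratio of *Fgfr1* between *Col10a1*-high and *Cnmd*-high cells at day 10 was 3.15 with the lower and 3.50 with the higher minimum. It was 3.12 with overlapping classes, 3.20 without the upper limit on genes, 3.18 without limits, and 3.40 over a total without the 50 largest genes. At day 14 it was 2.76 and 3.11 with the lower and higher minimum, 2.83 with overlapping classes, 3.03 both as a mean over cells and without the 50 largest genes, and 3.06 after thinning. The ratio of *Fgfr3* between *Cnmd*-high and *Aspn*-high cells at day 10 was 1.68 with the higher minimum, 2.04 as a mean over cells, 2.38 without the 50 largest genes, and 1.98 after thinning. At day 14 it was 2.78 with the lower minimum, 2.83 without limits, and 3.11 without the 50 largest genes. With *Chodl*-high set at 1 UMI, chosen after seeing the data, the day 10 ratios to *Aspn*-high cells of *Fgfr3* and *Fgfrl1* turned to 0.18 and 0.12. With a minimum of 1 UMI for a gene, 1748 genes were higher and 3059 lower in *Cnmd*-high than in *Aspn*-high cells, against 610 and 1725 at 50 UMIs. Between *Col10a1*-high and *Cnmd*-high cells these were 2470 and 2467 against 992 and 1137, and between *Ifitm5*-high and *Aspn*-high cells 941 and 4137 against 389 and 1655. Leaving the 50 largest genes out of the total moved all ratios by 0.15 and 0.14 for *Cnmd*-high over *Aspn*-high, 0.08 and 0.10 for *Col10a1*-high over *Cnmd*-high, and 0.28 and 0.26 for *Ifitm5*-high over *Aspn*-high at day 10 and day 14. Depth limited *Fgf10*, *Fgf18*, and the *Chodl*-high cells. No paired analysis was possible because each day had 1 library and no test was made.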

Other observations

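Cells high for none of the 5 markers were 2334 at day 10 and 4350 at day 14. *Fgf1* was at 7.84 CPM (6.97 to 8.79) and 5.74 CPM (5.16 to 6.36) in them, the highest level of any class at day 10. *Fgf7* was at 25.9 and 22.8 CPM, second to *Aspn*-high cells among the classes with at least 20 cells. Their receptor mix was 56.9% and 59.8% *Fgfr1*, 18.0% and 18.6% *Fgfr2*, and 25.1% and 21.6% *Fgfr3*, so that no single receptor took the share it had in *Cnmd*-high or *Col10a1*-high cells. At day 7 the 372 cells of this kind had 391 CPM of *Fgfr1* (370 to 412), together with 30862 CPM of 4 neutrophil markers and 27712 CPM of 5 osteoblast markers, whose part in that level was not tested.

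Among these cells, those with *Rgs5*, a pericyte gene, at 1000 CPM or more were 74 at day 10 and 203 at day 14. Their levels of the 3 signaling receptors were below those of each marker class with at least 20 cells on the same day, though not always beyond counting error. *Fgfr1* was at 26.1 CPM (16.9 to 38.5) and 40.1 CPM (32.0 to 49.6). *Fgfr2* was at 2.09 and 8.02 CPM (4.67 to 12.84), and *Fgfr3* at 3.13 CPM (0.65 to 9.14) and 9.43 CPM. The *Fgfr3* interval of day 10 overlapped that of *Chodl*-high cells. The *Fgfr2* interval of day 14 overlapped those of *Col10a1*-high cells and of the both-marker class. *Fgf1* was at 8.34 CPM (3.60 to 16.44) and 11.8 CPM (7.63 to 17.41). Cycling cells, 402 at day 10 and 365 at day 14, had a mixed pattern, with *Fgfr1* at 128 and 118 CPM, *Fgfr3* at 100.2 and 73.6 CPM, *Fgfrl1* at 156 and 115 CPM, and *Fgf7* at 27.0 and 18.4 CPM.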
